A study of Rattus norvegicus with 8 samples.

Results

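The regions described here are CpG island shores with partial DNA methylation in the rat bladder. A region was a 200-bp tile of the rn6 genome on chromosomes 1 to 20 that held at least 3 CpGs in each of the 8 samples, with a mean of under 10 CpGs. Its start lay 200 to 2000 bp from the start of a dense tile, which is a tile of 10 or more CpGs in every sample with a mean level under 10% in the controls and which stands here for a CpG island. Of 27474 such CpG-poor tiles beside 29409 dense tiles, the 3853 with a control mean of 20% to 80% were the members, out of 258144 tiles tested in all. The level of a tile was the sum of its C calls divided by the sum of its C and T calls, as a percentage.

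The samples were 5 bladder tumours of F344/DuCrj rats given 200 ppm DMA in the drinking water in a 104-week experiment from 10 weeks of age. The 3 controls came from rats given 0 ppm in the same experiment. The study takes the tumours, over 5 mm across, as urothelial carcinomas (UCs) and did no histology on them. It also killed rats that became moribund before the end, and whether these samples came from such rats is not stated. DMA is dimethylarsinic acid, a methylated metabolite of inorganic arsenic that causes bladder tumours in rats. The animals were male by the study's account. The labels call the controls bladder urothelium and the study's methods call them normal urinary bladders, so how much wall tissue they held is not known, and in bulk DNA a changed mix of cells and a change within cells cannot be told apart. Neither source says that the 5 UCs came from 5 different rats, so the p-values measure the spread between these samples.

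CpG islands are stretches of DNA with many CpGs, often at gene promoters, and they are mostly free of methylation in normal cells. Shores are the flanks where the island gives way to the methylated genome, and their methylation is known to differ between tissues and between tumours and normal tissue more than that of the islands themselves. A partial level of a single CpG in bulk DNA means that some of the copies carried methylation and others did not. In a tile it can also come from a mix of CpGs with low and high levels.

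Some promoters lie within such shores, and their sequences are given here with those of island promoters. A tile counted as CpG-poor by the CpGs that were read, not by every CpG in its sequence. The next sequences are the 250 bases before the start site in RefSeq's GRCr8 assembly, 5′ to 3′ on the gene's strand, with every CpG in capitals. Each was placed on the rn6 CpG positions of the deposited files by the spacing of its CpGs. The first promoter rose and the next fell in the UCs within the printed bases, the third fell with less support, and the last are island promoters beside a member that fell (Epcam) or rose (Aebp1).
Tbx1: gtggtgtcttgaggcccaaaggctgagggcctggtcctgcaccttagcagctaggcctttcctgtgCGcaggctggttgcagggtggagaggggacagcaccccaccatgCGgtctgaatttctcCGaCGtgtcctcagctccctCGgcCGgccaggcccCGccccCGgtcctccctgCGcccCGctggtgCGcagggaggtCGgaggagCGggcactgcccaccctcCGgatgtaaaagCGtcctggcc
Wfdc2: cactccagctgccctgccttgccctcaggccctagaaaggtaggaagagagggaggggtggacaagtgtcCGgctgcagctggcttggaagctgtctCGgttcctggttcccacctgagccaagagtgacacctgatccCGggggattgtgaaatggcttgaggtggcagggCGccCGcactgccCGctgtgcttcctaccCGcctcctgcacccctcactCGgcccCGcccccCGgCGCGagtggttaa
Kcns3: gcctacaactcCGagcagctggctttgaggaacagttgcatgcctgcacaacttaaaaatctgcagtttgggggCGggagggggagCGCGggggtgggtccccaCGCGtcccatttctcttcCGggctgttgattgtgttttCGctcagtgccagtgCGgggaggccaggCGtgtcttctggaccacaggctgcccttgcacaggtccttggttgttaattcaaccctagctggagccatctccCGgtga
Epcam: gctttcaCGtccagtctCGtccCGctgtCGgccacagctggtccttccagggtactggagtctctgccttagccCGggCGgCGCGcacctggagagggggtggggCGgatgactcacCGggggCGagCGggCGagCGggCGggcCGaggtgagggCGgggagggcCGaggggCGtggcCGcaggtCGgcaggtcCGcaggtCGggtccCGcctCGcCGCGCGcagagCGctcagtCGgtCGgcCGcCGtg
Aebp1: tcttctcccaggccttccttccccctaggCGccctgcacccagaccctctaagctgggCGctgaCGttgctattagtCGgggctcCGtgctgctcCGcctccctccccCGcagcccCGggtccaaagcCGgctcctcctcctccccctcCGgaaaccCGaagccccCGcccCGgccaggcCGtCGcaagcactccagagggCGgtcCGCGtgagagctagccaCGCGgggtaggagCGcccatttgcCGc

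The Tbx1 run, at chr11:86553566-86553815 on the forward strand, held 15 CpGs in 250 bases, and Wfdc2, at chr3:161018252-161018501 on the forward strand, held 12. Kcns3, at chr6:36819811-36820060 on the reverse strand, held 11. By contrast, Epcam (chr6:11298157-11298406, reverse strand) held 33 and Aebp1 (chr14:86101082-86101331, forward strand) held 22. The MspI site CCGG, searched on both strands, occurred in all 5 runs and in 46.8% of the 32007 upstream windows of the same length. Those windows had a median of 6 CpGs, fewer than each of the 5 runs. The TaqI site TCGA occurred in none of the 5 and in 19.2% of the windows.

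Tbx1 encodes a T-box transcription factor of the developing pharynx and heart. Over the 8 CpGs of the printed bases that were read in every sample, the controls were at 47.2%, 35.3% and 39.4%, and the UCs had a mean of 78.8%. UC 3 was the lowest of the UCs at 62.1%, above every control. Depth over these CpGs was uneven, with 252 to 1477 calls per sample. The CpG at printed base 179 averaged 19.5% over the controls against 78.3% over the UCs, and the CpG at base 211 went from 66.8% to 88.9%. Wfdc2 encodes a secreted protease inhibitor-like protein made by many epithelia. Over 10 CpGs its controls were at 25.1%, 23.7% and 28.1%, and the UC mean was 6.33%. The CpGs of the Wfdc2 run were uneven in the controls, with 44.6% at base 173 and 4.45% at base 140, and these went to 10.8% and 0.952% in the UCs.

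Kcns3 encodes a modifying subunit of voltage-gated potassium channels. Over 5 CpGs its printed bases averaged 46.0% for the controls and 25.8% for the UCs, and UC 3, at 45.5%, lay within the controls' range of 38.5% to 51.9%. The Kcns3 member there differed by -20.2 points, and its call ended without any 1 control, without UC 1, UC 2, UC 4 or UC 5, and with alike UCs merged. The printed bases of Epcam averaged 1.12% for the controls and 0.153% for the UCs over 9 CpGs, and those of Aebp1 0.432% and 5.06% over 17 CpGs. Of the Aebp1 samples UC 1 was highest, at 13.1%. These are averages over the run, and single CpGs of Aebp1 went from 0% to 27.7% at base 59 and from 1.33% to 27.3% at base 96, counted from the first printed base. At Epcam, 9 of the 33 printed CpGs were read in every sample, and 20 in at least 1 sample.

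Depth and likeness of the samples bear on all that follows. The deposited calls summed to 51434938 to 73836223 per sample, and a member had a median of 93 calls per sample, from 9 to 3693. Members held 4.48 CpGs on average, against 17.3 in a dense tile. UC 1 and UC 2 differed from each other by a median of 4.01 points over the members and UC 4 and UC 5 by 4.10, less than any 2 controls (5.72 to 6.04). UC 3 stood apart from the other UCs, at 12.2 to 12.8 points from the controls, where the others were 19.1 to 21.6 points away. Results are therefore also given after merging UC 1 with UC 2 into 1 sample, likewise UC 4 with UC 5, and separately without UC 3.

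Partial methylation took up a growing share of the flank with distance from the dense tile. At 200 bp, 98.5% of 12898 CpG-poor tiles were under 20% in the controls and 1.47% were members. At 1000 bp the members made up 35.7% of 1382 tiles, and at 2000 bp 41.3% of 875. Tiles over 80% were 0% of the flank at 200 bp, 13.7% at 1000 bp and 38.2% at 2000 bp. The members' own median control level rose over the same steps from 27.8% to 61.3%. These control values come from the rule and are a description of the shore. At its edges, the members nearest to 20% had control means of 20.02% and 20.03% and the tiles left out had 19.99% and 19.99%. At the upper edge a member upstream of Hoxd9 had 79.99% and another upstream of Fgf3 79.99%, and the tiles left out had 80.01% and 80.01%.

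**Figure D1:**
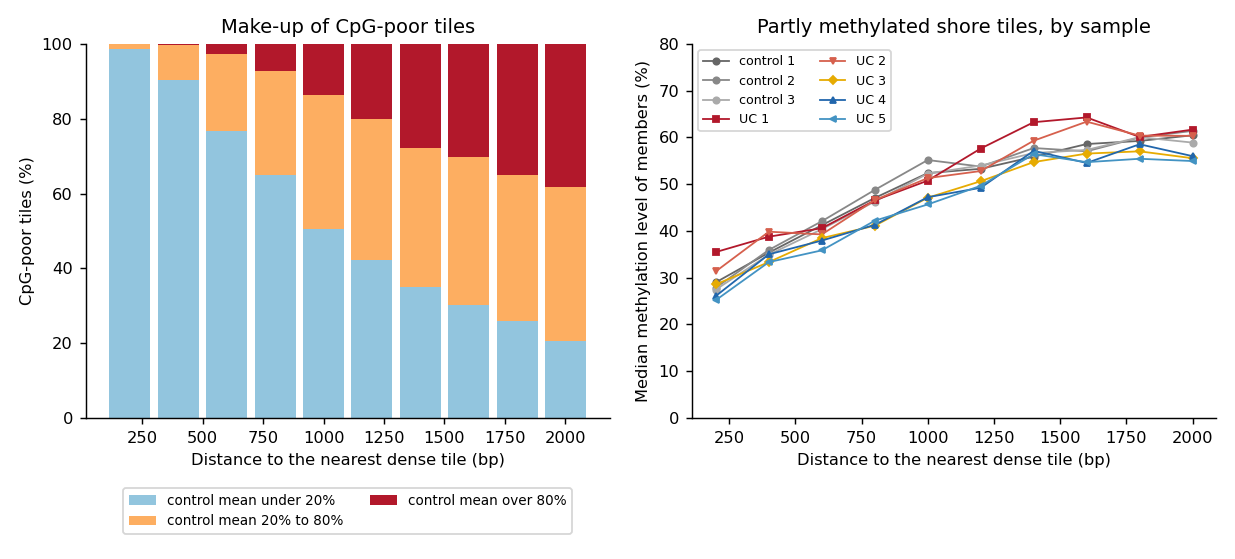
The left panel stacks the share of CpG-poor tiles (%) by control mean in each 200-bp step of distance to the nearest dense tile, and the right panel gives the median level (%) of the members at each distance, with 1 line per sample. Tiles under 20% went from 98.5% at 200 bp to 20.6% at 2000 bp, and in the right panel all 8 samples climbed with distance, with UC 4 and UC 5 among the lower lines at most steps.

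In the UCs, more members fell than rose. The test, a quasi-binomial model of the calls with limma-moderated dispersion and Benjamini-Hochberg adjustment over all tiles, called a tile where the adjusted p was under 0.05 and the group means differed by over 10 points. Of the 3853 members, 597 (15.5%) were called higher in UCs and 914 (23.7%) lower, and 2342 were not called. Over all tiles tested, 9.29% were called higher and 7.15% lower. The members called higher had a median difference of 27.9 points and those called lower of -32.3 points. Every UC lay above every control at 676 members (17.5%, against 15.4% of all tiles) and below at 1028 (26.7%, against 10.0%). The counts depended on the number of controls, since without control 1, control 2 or control 3 there were 311, 305 and 278 members called higher and 580, 569 and 546 lower. With the alike UCs merged the counts were 289 and 550, and without UC 3 they were 833 and 1058. Lower calls outnumbered higher calls in each of these fits.

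Other partly methylated tiles leaned the other way in their counts, a contrast between sets that was not tested. Among 74809 CpG-poor tiles of the same control range farther than 2000 bp from any dense tile, 21.8% were called higher and 14.9% lower, with a median difference of 4.62 points. Among 1365 dense tiles of that control range, 33.9% were called higher and 15.2% lower, with a median of 8.75 points. The shores' own median difference was -0.81 points, with the middle 50% of the members between -18.7 and 13.9. Higher calls outnumbered lower calls in both other sets, and lower calls outnumbered higher in the shores, also with the UCs merged and with each sample left out in turn. The sets differ in their control levels, with medians of 48.8% in the shores and 64.7% far from dense tiles. Within control means of 20% to 40%, the median difference was -0.48 points over 1458 shore members and 12.4 points over 11455 far tiles. Within 40% to 60% it was -2.88 points over 1038 members and 8.17 over 19012 far tiles, and within 60% to 80% it was -0.35 points over 1357 members and 2.98 over 44342 far tiles.

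**Figure D2:**
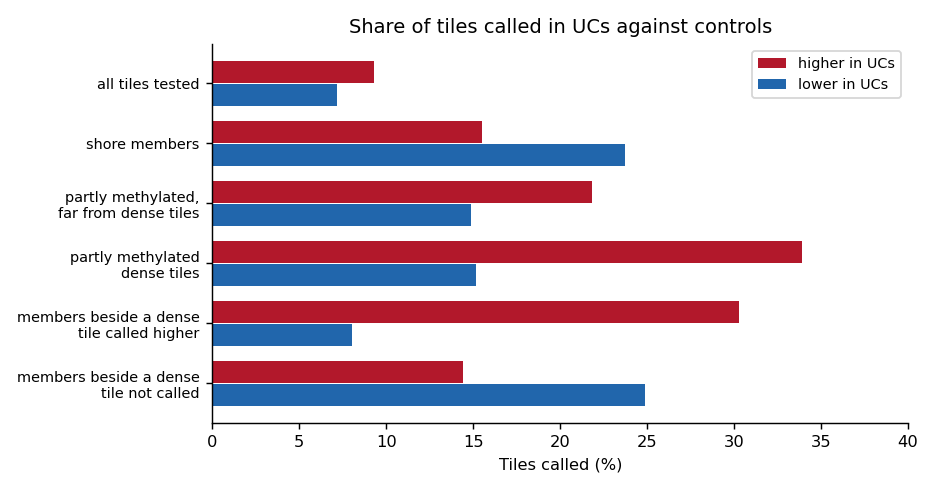
Each pair of bars gives the share (%) of tiles called higher (red) or lower (blue) in UCs than in controls, for all tiles, the shore members, the other partly methylated tiles and the members by the call of their nearest dense tile. The blue bar is longer for the shore members (23.7% against 15.5%), and the red bar is longer in both other partly methylated sets.

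The middle of the range emptied in the UCs while the median level moved by under 5 points. The members' median was 48.5%, 49.1% and 48.8% in the controls. It was 51.0%, 50.3%, 45.3%, 46.1% and 44.4% in UC 1 to UC 5. UC 1 and UC 2 lay above the controls and the others below. In contrast, the share of members at 20% to 80% was 50.3%, 50.0%, 73.7%, 54.3% and 54.3% in the UCs. The rule fixes that share near its upper limit in the controls (91.1% to 92%), so each control was also read over members chosen on the other two, where it was 86.6% to 87.8%. Members went to both ends. The share under 20% was 17.2% for UC 3, against 26.5% to 29.0% elsewhere among the UCs. The share over 80% was 9.16% for UC 3, against 16.6% to 23.2% elsewhere.

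Single CpGs of the members were also less often at middle levels in the UCs. Among member CpGs with at least 10 reads, 12674 to 14565 per sample, the share at 20% to 80% was 72.8% to 73.5% in the controls, 59.0% for UC 3, and from 31.8% up to 38.6% for its fellow UCs. These CpGs lie in members whose rule favours middle levels in the same controls. No reading with a control held out was made for single CpGs, so how far the rule raised the controls' share is not known. The far CpG-poor tiles lost the middle of the range too, with 47.4% to 55.9% of them at 20% to 80% in the UCs other than UC 3. There the tiles over 80% came to 30.6% to 40.3%, against 12.3% to 14.3% under 20%, whereas in the shores the low end held the larger share in every UC. The far tiles were also chosen on the control mean and began higher, at a median of 64.7% against 48.8% in the shores. These shares were not matched for control level.

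**Figure D3:**
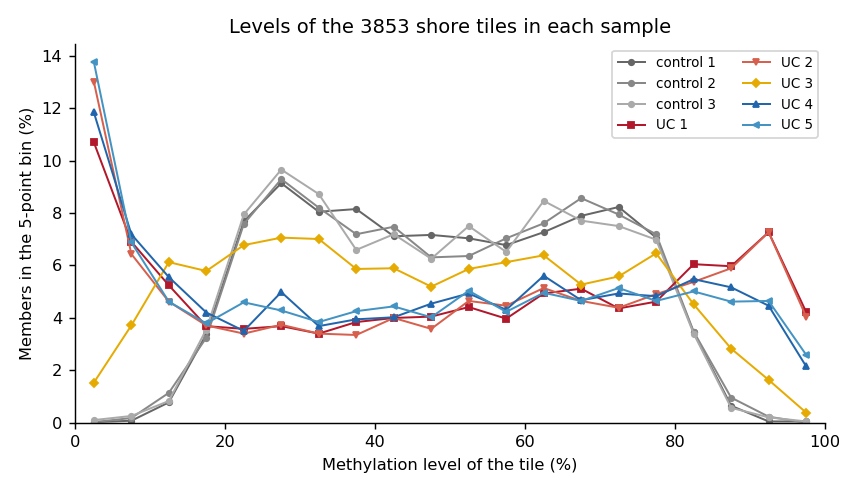
Each line gives, for 1 sample, the share of the 3853 members (%) in each 5-point bin of methylation level (%). The 3 controls fill the bins between 20% and 80% set by the rule, the UCs other than UC 3 have their highest point in the lowest bin and UC 1 and UC 2 a further one above 90%, and UC 3 lies between.

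By distance, the balance leaned lowest in the middle of the shore. Lower calls made up 18.5% of 189 members at 200 bp, 27.9% of 505 members at 800 bp and 23.5% of 361 members at 2000 bp. Higher calls ran from 13.3% at 600 bp to 20.1% at 1600 bp. The median difference was 1.33 points at 200 bp, -5.11 points at 800 bp and 2.83 points at 1600 bp. Every step had more lower than higher calls, and the differences between steps were not tested.

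The nearest dense tile moved with the member in part. Of the 3022 dense tiles that were nearest to a member, 177 (5.86%) were called higher by the quasi-binomial test. That compares with 3.81% of all 29409 dense tiles and 9.29% of all tiles. The 0 called lower were fixed in advance, since control means under 10% by the rule leave no room for a fall of over 10 points. Among the 261 members beside a dense tile called higher, 30.3% were called higher and 8.05% lower, with a median difference of 12.8 points. Among the other 3592 members, 14.4% were called higher and 24.9% lower, with a median of -2.13 points. With the alike UCs merged the first group had 15.7% higher and 5.36% lower, and the second 6.90% and 14.9%. Over all members the difference of the member and that of its dense tile had Pearson's r = 0.214, a description over 3853 tiles that share libraries and, in part, dense tiles.

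Members beside a dense tile called higher were called lower themselves in 21 cases (8.05%), so that shore and island went opposite ways. Over all members 23.7% were called lower, and over all tiles 7.15%. Start sites of 7 genes could be placed at these 21. Septin9, whose product is a GTP-binding protein of the septin cytoskeleton, had a member 1901 bp before its start site at chr10:106239201-106239400. The controls were at 75%, 73.6% and 69.2% and the UCs at 9.32%, 4.63%, 25.6%, 48.2% and 42.3%, with no overlap (adjusted p = 0.0291, limma-moderated). The dense tile 1600 bp away went from a mean of 0.387% to 60.8% (adjusted p = 0.00167). The Septin9 shore lost its call when any 1 control was left out or the UCs were merged, and its difference was -46.6 points. Drd2, the dopamine D2 receptor gene, had a member 277 bp before its start at chr8:53678401-53678600, where the controls averaged 56.3% ± 1.56 (SD, n = 3) and the UCs 43.0% ± 4.75 (SD, n = 5). Its dense tile rose from 2.65% to 22.2%. The Drd2 member's difference was 0.28 points as a mean of CpG levels, where it had been -13.3 points from summed calls, so its direction rests on the weighting of its CpGs. A tile at chr7:13915601-13915800 fell from a control mean of 30% to 9.17% 1600 bp from a dense tile at Ccdc105 that rose from 6.33% to 46.3%.

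Neighbouring members moved alike. There were 451 pairs of members in adjacent tiles, both members were called in 128 pairs, and the direction was the same in 127 of them (54 higher and 73 lower). The differences of adjacent members had r = 0.825 and their control levels r = 0.375, as descriptions over pairs that can share reads and fragments.

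Among the UCs, the members spread more than among the controls, with a median range of 24.1 points over 5 UCs against 9.79 over 3 controls, numbers that also reflect the number of samples. Beyond the controls' range by over 10 points, both alike pairs lay above at 569 of the 3853 members and below at 882. They lay on opposite sides at 31 members with UC 1 and UC 2 above and at 19 with UC 4 and UC 5 above. Both pairs were set against the same 3 controls, whose values also chose the members. The same counts were not made over all tiles, so they do not show whether this likeness of the pairs is particular to shores.

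The member with the largest rise, at chr2:138832601-138832800, had 27.4%, 26.2% and 15.8% in the controls and 89.5%, 94.0%, 59.8%, 89.3% and 92.4% in UC 1 to UC 5, which is 61.9 points more on average (adjusted p = 0.00583, limma-moderated; exact permutation p = 0.0179, the smallest that 56 divisions allow). All UCs lay far above the controls, and the dense tile 200 bp away went with it from 7.67% to 70.4%. The other 5 of the 6 largest rises, by the same test, were 58.3 to 59.8 points. They lay at chr2:5575201-5575400, chr1:165965601-165965800, chr3:7111201-7111400, chr15:51759201-51759400 and chr17:24650201-24650400. At chr3:7111201-7111400 the dense tile 1000 bp away stayed at 1.33% and 0.846%, while the member went from 22.8% ± 3.38 (SD, n = 3) to 82.4% ± 15.9 (SD, n = 5). At chr17:24650201-24650400 the dense tile rose too, from 8.01% to 46.0%. The calls at chr2:5575201-5575400 and chr17:24650201-24650400 ended without control 3, the former also with the UCs merged.

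The largest fall lay at chr8:115142001-115142200, 1971 bp before the start of Acy1, which encodes aminoacylase 1. The controls had 76.7%, 82.6% and 76.9% and the UCs 2.78%, 5.56%, 28.2%, 0% and 0%, for a difference of -71.4 points (adjusted p = 0.00445, limma-moderated; exact permutation p = 0.0179). UC 3 kept the highest level of the UCs. The calls behind this member were 30 to 72 per sample. The other falls of the 6 largest ran from -66.4 to -70.9 points, at chr9:15580601-15580800, chr10:91189201-91189400, chr6:30207001-30207200, chr1:247168201-247168400 and, 1858 bp after the start of C19h1orf131, chr19:57612601-57612800. All 6 had dense tiles under 2% in both groups. Without control 3 the calls at chr6:30207001-30207200 and C19h1orf131 ended. At chr1:247168201-247168400 UC 3 did not stand apart, with 7.97% among UCs of 5.08% to 8.25% and controls of 73.6% to 75% (adjusted p = 2.00e-04, limma-moderated).

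A start site could be placed within 3000 bp of 1586 members, at 1218 genes. Of these members 14.2% were called higher and 26.8% lower. Downstream of the start site lay 919 members, with 15.2% higher and 29.5% lower, and upstream 667, with 12.7% and 23.1%. Over all tiles 9.29% were called higher and 7.15% lower. The median difference was -0.89 points upstream, -3.78 downstream and 0.30 over the 2267 members with no placed start, and the differences between these sets were not tested.

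At genes of the epithelium, all members that passed the test fell. The list held 77 genes of epithelial adhesion, keratins, urothelial products and growth factor receptors, of which 24 could be placed and 11 had 17 members. Of these, 9 (52.9%) fell, at 6 genes, 0 rose and 8 did not pass, with a median difference of -20.9 points. Among all members 15.5% were called higher and 23.7% lower, and among all tiles 9.29% and 7.15%. Of the members that did not pass, those at Pkp1, Dsp and Lad1 and a member at Myo5b had higher UC means, by 2.56 to 8.10 points. The other uncalled members had lower UC means. The lists were drawn up with results of these data known, so their counts describe these genes and are no independent evidence of a direction. Over all tiles tested the median difference was 0.34 points. Epcam, an adhesion molecule of epithelial cells, had a member 856 bp after its start at chr6:11297201-11297400. The controls were at 65.4%, 75.1% and 67.9% and the UCs at 2.69%, 0%, 30%, 2.34% and 2.68% (difference -61.9 points, adjusted p = 0.00759, limma-moderated). A further Epcam member, 1144 bp before the start, had 69.9% and 68.9% as group means, so the call stood at the member after the start and not at the one before it.

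Klf5, a transcription factor of proliferating epithelia, had 4 members after its start that fell. The member at chr15:83709801-83710000 went from 71.4% ± 7.05 (SD, n = 3) to 9.43% ± 9.70 (SD, n = 5). UC 3 had 26.5% there, and its fellow UCs were at 2.70% to 7.27%. Fgfr3, a fibroblast growth factor receptor that is often mutated in human urothelial carcinoma, had a member 2631 bp after its start with 44.6% to 50.9% in the controls and 2.16% to 19.3% in the UCs (difference -39.3 points, adjusted p = 0.00366, limma-moderated). Erbb2, a receptor tyrosine kinase of the epidermal growth factor receptor family, had 20%, 25.7% and 20% in the controls, and in the UCs 2.27% in UC 1 and 0% in the other 4. Lsr, a protein of tricellular junctions, fell by 56.3 points. Krt18, a keratin of simple epithelia, fell by 43.1 points before its start, a call that ended without any 1 control or with the UCs merged. The other Krt18 member, 1245 bp after the start, had group means of 78.0% and 75.6%.

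At mesenchymal and muscle genes, most members that passed the test rose. Of 78 genes on that list 23 could be placed and 10 had 14 members. Of these, 10 (71.4%) rose, 1 (7.14%) fell and 3 did not pass, with a median difference of 50.1 points. Among all members 15.5% were called higher and 23.7% lower, and among all tiles 9.29% and 7.15%. The uncalled members at Ltbp2 differed by -13.4 and -6.64 points and the one at Cavin1 by 6.67 points. With the UCs merged 7 rose and 0 fell, and 7 and 0 also without any 1 control. Aebp1, which encodes an extracellular matrix protein of fibroblasts and smooth muscle, had the largest rise, at chr14:86100801-86101000, 432 bp before its start. The controls were at 36.1%, 27.4% and 19.3% and the UCs at 95.9%, 96.3%, 54.8%, 90.2% and 88.9% (difference 57.6 points, adjusted p = 0.00886, limma-moderated). Its calls were 31 to 74 per sample.

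Ccn2, the connective tissue growth factor gene, had 2 members that rose, and the one at chr1:21853001-21853200 went from 27.6% ± 8.76 (SD, n = 3) to 82.7% ± 12.3 (SD, n = 5). Ppp1r14a, an inhibitor of myosin phosphatase in smooth muscle, rose by 53.7 points and Adam12, a metalloprotease of mesenchymal cells, by 53.5 points. Msrb3, a methionine sulfoxide reductase, rose by 53.0 points, and Pdlim4, an actin-binding PDZ and LIM protein, by 52.9 points, but both calls ended without any 1 control or with the UCs merged. Pdlim4 had 35.6% in UC 3, close to its controls at 16% to 33.8%, and 89.6% to 93.4% in the other UCs. Smtn, smoothelin of contractile smooth muscle, was already at 78.9% ± 2.36 (SD, n = 3) and went to 92.7% ± 2.05 (SD, n = 5). Twist2, a transcription factor of mesenchyme, was the 1 called member that fell, averaging 53.5% in the controls against 21.5% in the UCs. It lost its call when any 1 control was left out. No member lay at the 42 leukocyte genes of a further list, of which 2 could be placed. Whether the share of wall tissue differed between the groups was not tested, and it cannot be told apart from a change within cells.

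**Figure D4:**
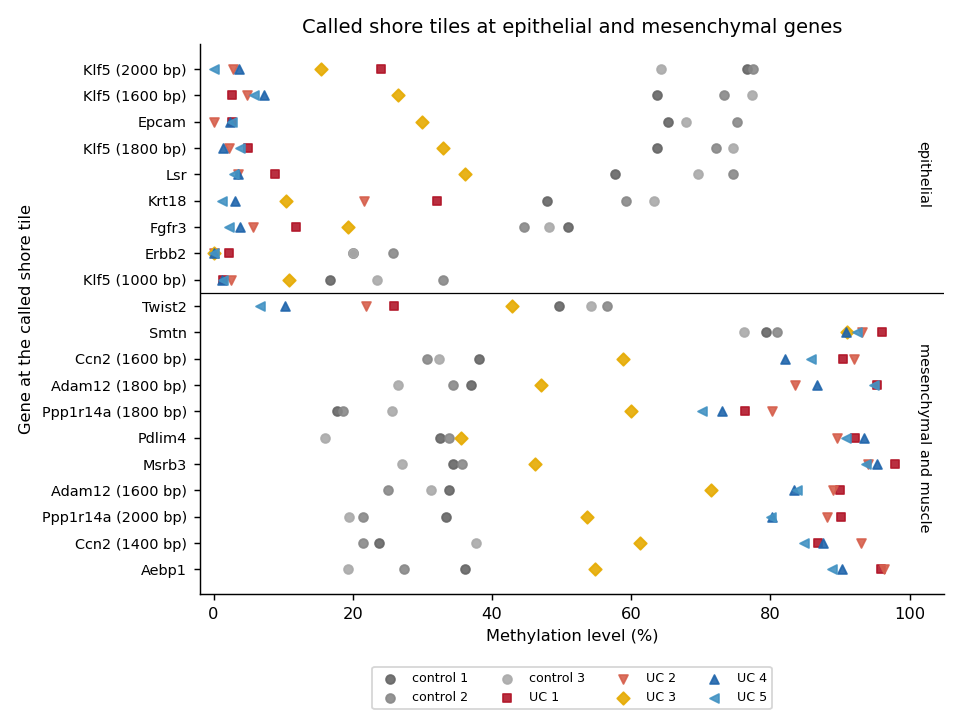
Each row is 1 called member at a gene of the epithelial list (above the line) or the mesenchymal and muscle list (below), with its level (%) in the 3 controls (grey circles) and 5 UCs (coloured marks), and the distance to the dense tile where a gene has several members. The UCs lie left of the controls in the upper rows and right of them in all lower rows but Twist2, and UC 3 (yellow diamonds) is most often between.

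At genes of DNA and histone methylation, the members that passed the test fell. Of 36 genes 17 could be placed and 4 had 8 members, of which 7 fell and 1 did not pass. Among all members 23.7% were called lower, and among all tiles 7.15%. Of the 7 falls 3 were at Tet3, 2 at Kdm5b and 1 each at Kmt2b and Gadd45b, and members of 1 gene share their source. With the UCs merged 4 fell, and without control 1, control 2 or control 3 5, 3 and 4 did. Tet3 encodes a dioxygenase that oxidises methylcytosine. Its member 2006 bp before the start, at chr4:115158601-115158800, had 60.1%, 59.2% and 65.6% in the controls and 6.51%, 2.27%, 20.3%, 0% and 2.82% in the UCs (difference -55.2 points, adjusted p = 0.00260, limma-moderated). Kdm5b, a demethylase of lysine 4 of histone H3, fell by 56.9 points, from 75.6% to 18.6%. Kmt2b, a methyltransferase for the same lysine, went from 72.8% to 61.5%, and its call ended without control 2, control 3 or UC 5 and with the UCs merged. Of 47 genes of arsenic handling and antioxidant defence 4 had a member each. Gsto2, a glutathione transferase of the omega class, was the 1 called (25% of these members), and it was lower in the UCs (difference -29.8 points). The largest difference on this list was an uncalled rise of 41.2 points at Cbs, where UC 3 alone lay below every control, at 11.5%. The uncalled members at Prdx1 and Mt2A differed by 2.60 and -25.3 points. Without UC 3, 1 member of the list was called higher and 2 lower. There were 0 calls left when any 1 control was left out.

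Developmental transcription factors went both ways. Of 69 placed genes of homeobox, T-box, forkhead, GATA and similar families 25 had 40 members. Of these, 12 (30%) rose, 5 (12.5%) fell and 23 did not pass. Among all members 15.5% were called higher and 23.7% lower, and among all tiles 9.29% and 7.15%. The count of rises was 17 without UC 3 and 9 with the UCs merged, and 3 or 2 fell without any 1 control. Six5 rose by 50.2 points at chr1:79998001-79998200, with 23.8% to 32.4% in the controls and 51.4% to 96.6% in the UCs. En1, at 200 bp from its dense tile, went from 25.2% ± 1.97 (SD, n = 3) to 55.0% ± 11.4 (SD, n = 5). Gata2 fell from 37.0% to 7.07% and Hoxd10 from 28.2% to 8.41%, the latter with no call when any 1 control was left out. Within the Hoxd cluster, called members rose at Hoxd9 and Hoxd1, by 11.2 and 10.3 points from control means of 79.99% and 79.51%. Called members fell at Hoxd10 and at Hoxd13, there by 19.2 points. The Hoxd9 call ended without control 1. A second Hoxd9 member, not called, differed by -20.0 points, from 36.5% to 16.5%. Further uncalled members differed by -1.42 to -12.5 points at Hoxd13, -20.2 at Hoxd10, 6.30 at Hoxd12 and 4.85 at Hoxd11.

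Further members at placed genes were chosen after their values were seen. After Aebp1 the larger rises included a Tbx1 member 284 bp after the start, with controls at 16.9%, 21.2% and 35.7% and UCs at 84.1%, 89.5%, 68.6%, 77.7% and 79.1% (difference 55.2 points, adjusted p = 0.00153, limma-moderated). Serp2, a protein of the endoplasmic reticulum stress response, rose by 54.0 points and Lrrc75b by 53.4. Among the larger falls, Dtnb, a dystrophin-associated protein, fell by 64.6 points, Stard3, a cholesterol-binding protein of late endosomes, by 62.2, Acads, the short-chain acyl-CoA dehydrogenase, by 62.1 and Slc5a5, the sodium iodide symporter, by 61.4. Members that overlapped a promoter window included Htatip2, which fell from 76.3% to 23.6%, Gtf2ird2, from 65.2% to 18.5%, and Sgms1, from 29.4% to 14.1%. Syt15 rose from 28.7% to 64.5%. The calls of Gtf2ird2, Sgms1 and Syt15 ended with the UCs merged. The Tbx1 and Wfdc2 members that hold the printed bases kept their calls without each sample and with the UCs merged. The Tbx1 member differed by 38.0 points and the Wfdc2 members by -16.5 and -22.2 points.

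The Tbx1 neighbourhood held many members. Near Tbx1 lay 2 dense runs with 5 members each. The one at chr11:86559801-86561000 lay 6584 bp after the Tbx1 start, counted to its centre, and the one at chr11:86516001-86516600 lay 37516 bp before it. Beside the first, the member at chr11:86561201-86561400 rose from 33.6% ± 3.44 (SD, n = 3) to 72.3% ± 6.35 (SD, n = 5). On its other side, at chr11:86558401-86558600, UC 1 to UC 3 had 81.7%, 85.5% and 80.2%, above the controls at 47.9% to 65.7%, while UC 4 and UC 5 had 4.79% and 5.07%. That member had no call, and its UC mean of 51.5% averages over UCs on both sides of the controls. Depth was uneven there, with 165 to 1381 calls per sample, against a median of 93 over all members. Of the 5 members beside the farther run, 4 rose, by 12.6 to 20.6 points, and 1 did not pass the test. The calls of these 4 members ended without at least 1 of the controls.

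The dense run with the most members, 6 on 1 side, lay at chr16:60208001-60209200 and had no placed start site near it. In the controls the members' means fell towards the island, from 79.4% at 1800 bp to 26.2% at 600 bp. In the UCs they were 91.6% at 1800 bp, 89.3% at 1000 bp and 63.7% at 600 bp. The largest difference there, 50.2 points at 800 bp, had controls at 34.0%, 42.8% and 31.2% and UCs at 96.7%, 97.7%, 77.6%, 72.8% and 86.4% (adjusted p = 0.00617, limma-moderated). The 6 dense tiles themselves were at 1.01% in the controls and 1.12% in the UCs. Of the 5 called members on this flank 3 lost the call when control 1 was left out. The high level of the outer flank thus reached nearer to the island in the UCs, with the island unmethylated in both groups.

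**Figure D5:**
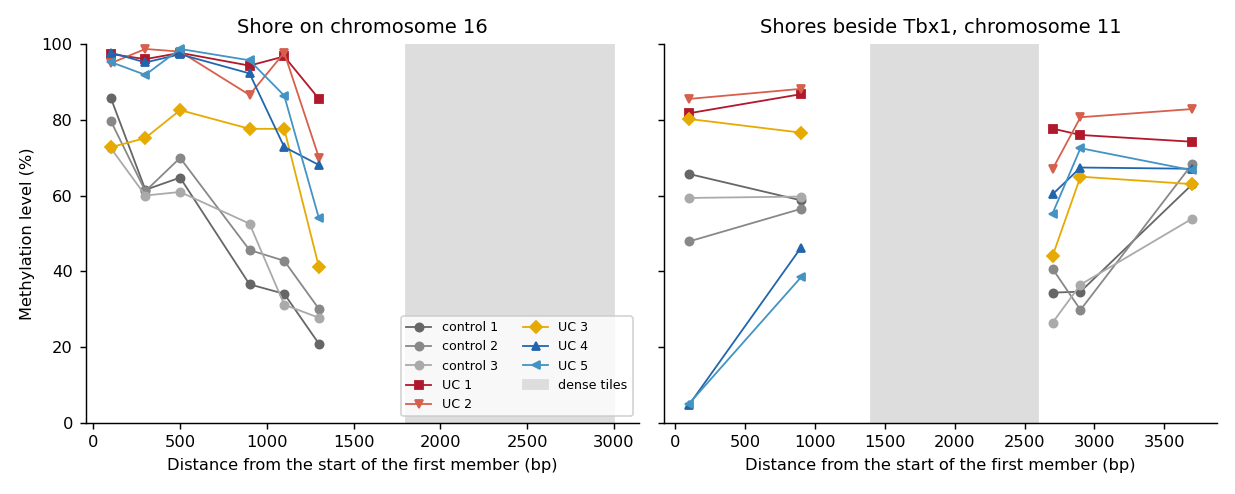
Methylation levels (%) of the members beside 2 runs of dense tiles (grey) against distance from the start of the first member (bp), with 1 line per sample. On chromosome 16 the controls fell from 79.4% to 26.2% towards the run and the UCs stayed above them at the 5 inner members, and beside Tbx1 the outermost left member had UC 4 and UC 5 near 5% and the other UCs over 80%.

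Of the 246 regions that the study lists as promoters with raised methylation, some overlapped a dense tile that was nearest to a member. There were 40 such members, of which 5 rose, 4 fell and 31 were not called. That is 12.5% higher and 10% lower, beside 15.5% and 23.7% of all members and 9.29% and 7.15% of all tiles. The 5 with the largest differences after Septin9 were at Shisa7, Col2a1, Prrx2, Pcdhac1 and Ccdc105. Shisa7, an auxiliary protein of neurotransmitter receptors, had a member 296 bp before its start with 21.7% to 31.3% in the controls and 52.1% to 82.2% in the UCs (difference 40.8 points, adjusted p = 0.0111, limma-moderated). Its dense tile, part of a list chosen on these samples, went from 7.92% to 47.0%. Prrx2, a homeobox gene of limb mesenchyme, rose by 33.8 points in the shore while its dense tile was at 0.508% and 0.570%. Col2a1, the cartilage collagen, rose by 37.0 points and Pcdhac1, a protocadherin, by 33.1. Calls ended without control 3 at Shisa7, Col2a1 and Ccdc105, and without control 2 at Pcdhac1, while Prrx2 kept its call.

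Of the 4 genes that the study followed further, Kcnd3 had a member at its listed island and the nearest members to the other genes lay far from theirs. Kcnd3 encodes a voltage-gated potassium channel. Its member at chr2:207924801-207925000 had 57.8%, 31.0% and 45.8% in the controls and 43.8%, 44.0%, 33.3%, 11.1% and 15.7% in the UCs. The groups overlapped and the member was not called (adjusted p = 0.435, limma-moderated), although the dense tile 1000 bp away was at 0.802% and 9.65%. The nearest members to the listed regions of Cpxm1, Opcml and Tbx20 were not called either.

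Of 89 tiles followed through the alternatives, 72 were called, and 38 of these kept their call with each of the 8 samples left out and with the UCs merged. The other 34 include members at C19h1orf131, Drd2, Gsto2, Gtf2ird2, Hoxd1, Hoxd9, Hoxd10, Hoxd13, Kcns3, Kmt2b, Krt18, Msrb3, Pdlim4, Septin9, Sgms1, Shisa7, Syt15 and Twist2.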

How the data were processed

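Reduced representation bisulfite sequencing (RRBS) reads fragments cut at MspI and TaqI sites, so the shore is seen only where such fragments lie. After adapter trimming the authors mapped 75-base reads to rn6 using RRBSMAP, with ambiguous alignments and PCR duplicates discarded, and deposited counts of C calls and of C and T calls for each CpG, strands combined. They also deposited effective C and T counts, which are expected counts corrected for base variants by the opposite strand and were used in an alternative. HOMER is among the tools of the submitters' processing notes. Every deposited CpG had at least 3 reads. No rn6 genome or annotation was used here.

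Calls were summed over 200-bp tiles. The 258144 tiles with 3 CpGs in every file were tested with a quasi-binomial model (group only), with dispersion moderated by squeezeVar of limma 3.58.1 in R 4.3.3, an F-test and Benjamini-Hochberg adjustment. Single tiles were also compared by two-sided exact permutation over the 56 divisions of 3 and 5 samples. Levels of 1 sample carry counting error that their calls set, and duplicates removed by the authors leave calls that still share fragments.

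Start sites came from RefSeq promoter windows of GRCr8, placed on the rn6 CpG positions by CpG spacing. Of 15380 windows with at least 8 CpGs, 7508 (6842 genes) were placed, with at least 8 CpGs matched, at most 1 extra and a lead of 3 over the next place. Of 132 placed genes with a region in the study's list, all 132 were on its chromosome and 129 within 1000 bp. This step was chosen after the data had been seen. One listed name had become a date in its spreadsheet and was read from its accession.

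The members and gene lists were chosen with earlier results of these data known. By rule, the named regions had at least 30 calls in every sample: the 6 largest rises and falls, the members of the 3 dense runs with most members, those at the edges of the 20% to 80% range, those nearest to Cpxm1, Opcml, Kcnd3 and Tbx20, and the 6 with the largest difference beside a listed region. All other genes were named after their values were seen. Alternatives changed the read minimum, the CpGs, the grid, the level, the test, the limits and the samples. Leaving out samples for the counts at gene lists and for the other sets of tiles was chosen after seeing the data.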

Additional observations from a re-analysis of the deposited data

Results flagged for a closer look

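In 37 of 108 measures, 1 UC lay so far from the other 4 that its gap to the nearest, divided by the range of all 5, exceeded 0.71, the limit that chance passes in about 1 of 20 groups. The measures share libraries and members. UC 3 was the outlying sample in 35 of them, most often on the controls' side of the other UCs.

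Over the members, UC 3 had 17.2% of tiles and 25% of single CpGs under 20%, and 73.7% of tiles and 59.0% of single CpGs at 20% to 80%. Its median absolute difference from the controls was 12.6 points on average, where the other UCs had 19.6 to 21.2.

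Among members with a higher mean in the UCs, UC 3 was lowest with 59.8% at chr2:138832601-138832800, 69.0% at chr2:5575201-5575400, 54.6% at chr3:7111201-7111400 and 54.2% at chr17:24650201-24650400. It was also lowest at Aebp1 (54.8%), Ccn2 (61.3%), Ppp1r14a (53.6%), Lrrc75b (48.9%), Msrb3 (46.2%), Pdlim4 (35.6%), En1 (35.2%), the Tbx1 promoter (61.3%) and the Pcdhac1 shore (51.7%). On chromosome 16 it had 72.7% at chr16:60206201-60206400 and 82.5% at chr16:60206601-60206800, and on chromosome 11 it had 67.2% at chr11:86517601-86517800 and 71.8% at chr11:86518001-86518200. At the member nearest to Cpxm1 it had 56.2%, below the controls at 63.2% to 72.8%.

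Among members that fell, UC 3 was highest at Acy1 (28.2%), C19h1orf131 (31.8%), Dtnb (24.2%), Stard3 (27.5%), Klf5 (26.5%), Epcam (30%), Slc5a5 (26.6%), Lsr (36.2%), Hoxd13 (26.6%) and Gata2 (20.4%), and with 26.4% at chr10:91189201-91189400 and 43.3% at chr6:30207001-30207200.

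The exceptions were UC 4 at Wfdc2, with 10.0% at chr3:161018201-161018400 against 2.35% to 3.98% in the other UCs, and UC 1 at Erbb2, with 2.27% against 0% in the others.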

How the results depend on the processing

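The median difference of the members kept its sign under every alternative that gave one, with -1.52 to -0.33 points when samples were left out in turn. Members called higher and lower moved by over 1.5 times with at least 10 reads per CpG (322 and 459), with the alike UCs merged (289 and 550) and with control means of 30% to 70% (376 and 553), and without moderation 362 rose. When 1 sample was left out the counts ran from 278 to 833 higher and from 546 to 1058 lower. Fewer members enter with the higher read minimum and the narrower range, and for the others the cause was not tested. The replicate numbers of the labels were not shown to pair the samples (same-numbered samples' deviations had r = 0.004, -0.04 and 0.02). With the replicate block 0 members were called higher and 0 lower, while 1794 had an unadjusted p under 0.05 (2111 without the block) and the smallest adjusted p over all tiles was 0.0666. Directions reversed at chr11:86558401-86558600 without UC 4 or UC 5 (5.41), with -14.7 to 5.48 points over the samples left out, at the member nearest to Opcml without UC 2 (-0.49 to 11.03 points) and at Drd2 as a mean of CpG levels (0.28). They also reversed at the uncalled second members of Krt18 (-6.68 to 3.83 points over the samples left out) and Epcam (-2.67 to 1.58, and 1.64 with effective counts or with CpGs present in all 8 files). Few calls per tile (93 at the median) and 3 controls limit what can be called. Members outside cut fragments are not seen.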
